A study of Homo sapiens with 4 samples.

Results

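The transcripts described here are those of 10 genes that carry a cell through the G1 phase, namely the D-type cyclins CCND1, CCND2 and CCND3, the E-type cyclins CCNE1 and CCNE2, the kinases CDK2, CDK4 and CDK6, the kinase inhibitor CDKN1B (p27) and the retinoblastoma gene RB1. They were chosen by name as G1 regulators, and all 10 were found by Entrez Gene identifier among the 19801 genes listed for each library. The cells were LNCaP, an androgen-sensitive human prostate cancer line. In the 4 libraries of the study, 1 per condition, cells received an empty vector or the plasmid labelled AR1-651 for 24 h, and were then kept with or without ailanthone (AIL), a compound from a plant, for the next 12 h. AIL-treated libraries are marked + AIL below. All were one cell line in the same serum-containing medium, and how many cultures went into each library is not given in the labels. With single libraries, no difference can be set against a spread between replicates, and none is given a p-value.

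In G1, D-type cyclins bind CDK4 or CDK6 and begin the phosphorylation of the RB1 protein, which otherwise holds E2F transcription factors inactive. E-type cyclins with CDK2 complete that step, E2F target genes are transcribed and the cell enters S phase. CDKN1B binds cyclin-CDK complexes and blocks CDK2, and CDK4 is a well-known client kinase of the HSP90 chaperone with its cochaperone CDC37. The study also examined the cell cycle and the CDK4 protein in prostate cancer cells given AIL, and these libraries show how the messenger RNAs of the same machinery stood after 12 h.

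Values are RPKM, reads normalized for exon length and for all mapped reads, which can be compared between genes because they are per length. The low values rose in steps, from which a depth of 4770000 to 5650000 counted reads per library was estimated, and the counting intervals below (95%) follow from that depth and cover counting error only. Changes on the log2 scale are differences of log2(RPKM + 1), which understates changes of genes with low RPKM, and folds are ratios of RPKM. A gene was counted as 2-fold or 1.5-fold changed on the log2(RPKM + 1) scale. The AR1-651 library stood apart. Its median-ratio factor was 0.876 against 1.02 to 1.06 in the others, and the median change of all 14626 genes that reached 1 RPKM in at least 1 library was -0.30 against empty vector, which median-ratio scaling moved to -0.09. That change was also lower for longer genes (Spearman rho = -0.39 across 14005 genes), from a median of 0.16 in the shortest sixth of genes to -0.69 in the longest. AR1-651 + AIL stood apart by GC content. Its changes were lower where GC content was higher, with rho = -0.60 against empty vector + AIL and -0.41 against AR1-651. In the comparisons without that library, rho with GC content was -0.03 (AR1-651 against empty vector) and -0.06 (AIL in empty vector cells). KLK3, an androgen-responsive gene, had 287 RPKM with empty vector and 1442 with AR1-651. The level of the plasmid's own transcript was not analysed here, and AR1-651 names the library by its label. The luminal markers KLK3, KLK2, TMPRSS2, FOLH1, KRT8 and KRT18 were all present (11.6 to 1442 RPKM), whereas the basal keratin KRT14 was at 0 to 0.21 RPKM, the leukocyte gene PTPRC at 0.36 to 0.94 and the endothelial gene PECAM1 at 0.07 to 0.59. Of the fibroblast genes, PDGFRB was at 0.03 to 0.06 RPKM, COL1A2 at 0 to 0.46 and COL1A1 at 1.75 to 4.59, highest with empty vector.

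**Figure D1:**
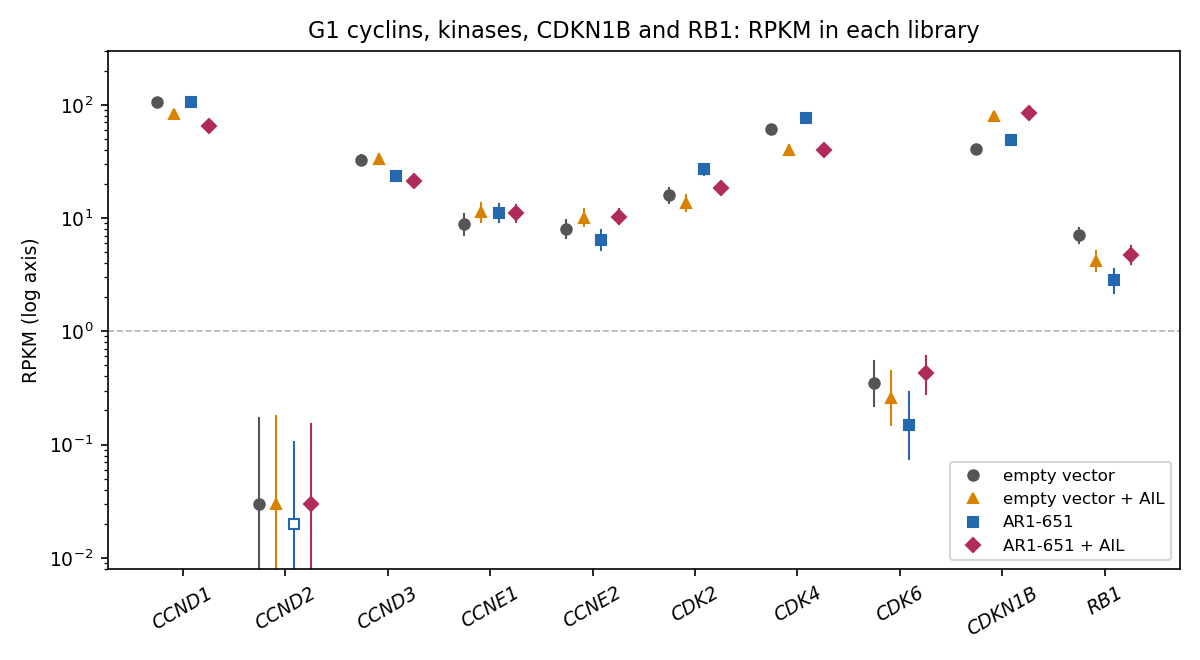
RPKM (log axis) of the 10 G1 genes in the 4 libraries, 1 point per library, with bars for the 95% counting interval (cut off at the axis for CCND2) and a dashed line at 1 RPKM. The open symbol stands for a value of 0, which a log axis cannot show. CCND1, CDK4, CDKN1B and CCND3 lie between 21.1 and 105 RPKM in every library, while CCND2 and CDK6 stay under 1.

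CCND1 (Entrez Gene 595), the D-type cyclin most often linked to mitogen and steroid signals, was the most abundant of the 10 transcripts in every library but AR1-651 + AIL. It had 105 RPKM without and 82.2 with AIL in empty vector cells, and 105 without and 64.5 with AIL in AR1-651 cells. Both libraries with AIL were therefore below both without it, and the AR1-651 and empty vector libraries had nearly the same RPKM (ratio 1.00, counting interval 0.945 to 1.06). That equality depended on the processing. Median-ratio scaling moved the log2 change from 0.002 to 0.27, and removal of the length and GC trend moved it to 0.35. With AIL, CCND1 was 1.28-fold lower in empty vector cells (interval 1.20 to 1.36) and 1.63-fold lower in AR1-651 cells (1.53 to 1.74).

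CCND3 (Entrez Gene 896), the other D-type cyclin expressed in these cells, had 32.8 RPKM without and 33.5 with AIL in empty vector cells, and 23.5 without and 21.1 with AIL in AR1-651 cells. In unscaled RPKM its libraries divided by plasmid and not by AIL. It was 1.40-fold lower with AR1-651 than with empty vector (1.23 to 1.59), and 1.59-fold lower when both carried AIL (1.39 to 1.82). Removal of the length and GC trend brought these log2 changes from -0.47 to -0.05 and from -0.64 to -0.20. Median-ratio scaling brought them to -0.21 and -0.59, and moved the change with AIL in AR1-651 cells from -0.15 to -0.36. CCND2 (Entrez Gene 894) was at 0.03 RPKM in 3 libraries, about 1 read each, and at 0 in AR1-651, where 3 reads, the limit that a count of 0 allows, would be 0.0852 RPKM. CCND1 thus made up 71.0% to 81.8% of the summed RPKM of the D-type cyclins, with the highest share in AR1-651 and the lowest in empty vector + AIL.

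CDK4 (Entrez Gene 1019), the main catalytic partner of D-type cyclins here, had 61.2 RPKM without and 39.9 with AIL in empty vector cells, and 77.0 without and 39.8 with AIL in AR1-651 cells. The libraries with AIL had practically one level (ratio 0.997, interval 0.870 to 1.14), well below both libraries without AIL. CDK4 was 1.53-fold lower with AIL in empty vector cells (1.35 to 1.74) and 1.94-fold lower in AR1-651 cells (1.73 to 2.17), the latter a log2 change below those of all but 6.46% of the genes tested. In empty vector cells its log2 change of -0.60 was below those of all but 21.4%. AR1-651 alone had 1.26-fold more CDK4 than empty vector (1.13 to 1.39). Median-ratio scaling moved that log2 change from 0.33 to 0.59, and removal of the length and GC trend moved it to 0.35. CDK6 (Entrez Gene 1021), the paralogue that serves in the same role in other lineages, had 0.35 RPKM without and 0.26 with AIL in empty vector cells, and 0.15 without and 0.43 with AIL in AR1-651 cells, or about 10 to 28 reads over 11729 nt of exon. CDK4 exceeded CDK6 by a factor of 92.6 to 514. The CDK6 ratio between AR1-651 + AIL and AR1-651 was 2.87, with a counting interval as wide as 1.27 to 6.22.

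CDKN1B (Entrez Gene 1027) was higher with AIL. It had 41.0 RPKM without and 80.3 with AIL in empty vector cells, and 48.7 without and 84.2 with AIL in AR1-651 cells. Both libraries with AIL were above both without. CDKN1B was 1.96-fold higher with AIL in empty vector cells (1.76 to 2.18), which put its log2 change of 0.95 above 89.5% of the genes tested. In AR1-651 cells it was 1.73-fold higher (1.58 to 1.90), and its log2 change of 0.78 lay above 78.5% of the genes. Between the libraries with AIL the ratio was 1.05 (0.965 to 1.14). In AR1-651 + AIL, CDKN1B was the most abundant of the 10 transcripts, ahead of CCND1.

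CDK4 was lower and CDKN1B higher with AIL in either background, and their promoter windows are shown for that reason. CCND1 was also lower in either background, but the set of promoter windows used here held none for it. The sequences are those of RefSeq on GRCh38.p14, from 250 bases before to 50 bases after the annotated start, read 5′ to 3′ on the strand of the gene, which is chr12:57752261-57752560, minus strand, for CDK4 and chr12:12717118-12717417, plus strand, for CDKN1B. Capitals mark CACGTG, the E-box bound by MYC and related factors, and GGGCGG or its reverse complement, the box of SP1.
CDK4: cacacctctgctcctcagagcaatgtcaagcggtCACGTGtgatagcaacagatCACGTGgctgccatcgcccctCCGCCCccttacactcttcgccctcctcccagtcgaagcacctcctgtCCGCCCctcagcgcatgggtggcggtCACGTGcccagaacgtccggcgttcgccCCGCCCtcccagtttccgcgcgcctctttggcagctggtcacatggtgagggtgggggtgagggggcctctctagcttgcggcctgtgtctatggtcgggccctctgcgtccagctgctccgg
CDKN1B: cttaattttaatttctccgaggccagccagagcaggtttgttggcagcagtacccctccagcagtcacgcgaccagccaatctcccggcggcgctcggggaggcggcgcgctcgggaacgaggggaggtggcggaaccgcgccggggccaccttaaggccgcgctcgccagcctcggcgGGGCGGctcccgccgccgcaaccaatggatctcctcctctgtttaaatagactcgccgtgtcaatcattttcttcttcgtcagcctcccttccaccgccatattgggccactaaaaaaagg

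The CDK4 window held CACGTG at 3 places, starting 216, 196 and 101 bases before the start, and the SP1 box at 3. The CDKN1B window held no CACGTG and 1 SP1 box, 71 bases before the start. Of the first windows of 27305 genes, 7.43% held CACGTG and 44.6% the SP1 box on either strand. E2F sites spelled TTTCGCGC or TTTGGCGC (1.18% of windows) and cAMP-response sites spelled TGACGTCA or TAACGTCA (2.33%) were in neither. These are matches of letters, and nothing was measured here of the factors at these promoters.

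CDK2 (Entrez Gene 1017), the kinase of the E-type cyclins, had 15.9 RPKM without and 13.6 with AIL in empty vector cells, and 27.0 without and 18.5 with AIL in AR1-651 cells. It was highest with AR1-651, 1.70-fold above empty vector (1.42 to 2.05), a log2 change of 0.73 that lay above 92.3% of the genes tested. Median-ratio scaling moved that change to 0.99, and removal of the length and GC trend moved it to 0.72. CDK2 was also 1.36-fold higher with AR1-651 when both libraries carried AIL (1.10 to 1.68). With AIL it was 1.46-fold lower in AR1-651 cells (1.23 to 1.73), and in empty vector cells the ratio was 0.855 with an interval of 0.686 to 1.07 that includes equality. The study had already named CDK2, from these same libraries, among genes raised by AR1-651 and lowered by AIL.

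The E-type cyclins were lower and closer together. CCNE1 (Entrez Gene 898) had 8.86 RPKM without and 11.3 with AIL in empty vector cells, and 11.2 without and 11.0 with AIL in AR1-651 cells. Only empty vector stood somewhat below the rest, and the counting interval of each of its 4 ratios included 1. CCNE2 (Entrez Gene 9134) had 8.01, 10.1, 6.44 and 10.3 RPKM in the same order, so that both libraries with AIL lay above both without. Its ratio with AIL was 1.26 in empty vector cells (0.966 to 1.63) and 1.60 in AR1-651 cells (1.24 to 2.10). Removal of the length and GC trend turned the latter log2 change from 0.61 to -0.29. The GC content of the CCNE2 transcript is 35.4%, and across 14005 genes the change with AIL in AR1-651 cells was lower where GC content was higher (rho = -0.41). The part of GC content in the CCNE2 value was not tested further.

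RB1 (Entrez Gene 5925), the substrate of these kinases, had 7.02 RPKM without and 4.18 with AIL in empty vector cells, and 2.81 without and 4.73 with AIL in AR1-651 cells. Empty vector was the highest library and AR1-651 the lowest, with both AIL libraries between them. RB1 was 2.50-fold lower with AR1-651 (1.89 to 3.34), a log2 change of -1.07 against -0.30 for all genes and -0.69 for the longest sixth of genes. RB1 has 4793 nt of exon. With the length and GC trend removed the change was -0.59, and with median-ratio scaling -0.86, both short of 2-fold. With AIL it was 1.68-fold lower in empty vector cells (1.29 to 2.17) and 1.68-fold higher in AR1-651 cells (1.26 to 2.28). The GC content of RB1 is 37.3%, and after removal of the trend the second log2 change went from 0.59 to -0.19, while the first went from -0.63 to -0.57.

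**Figure D2:**
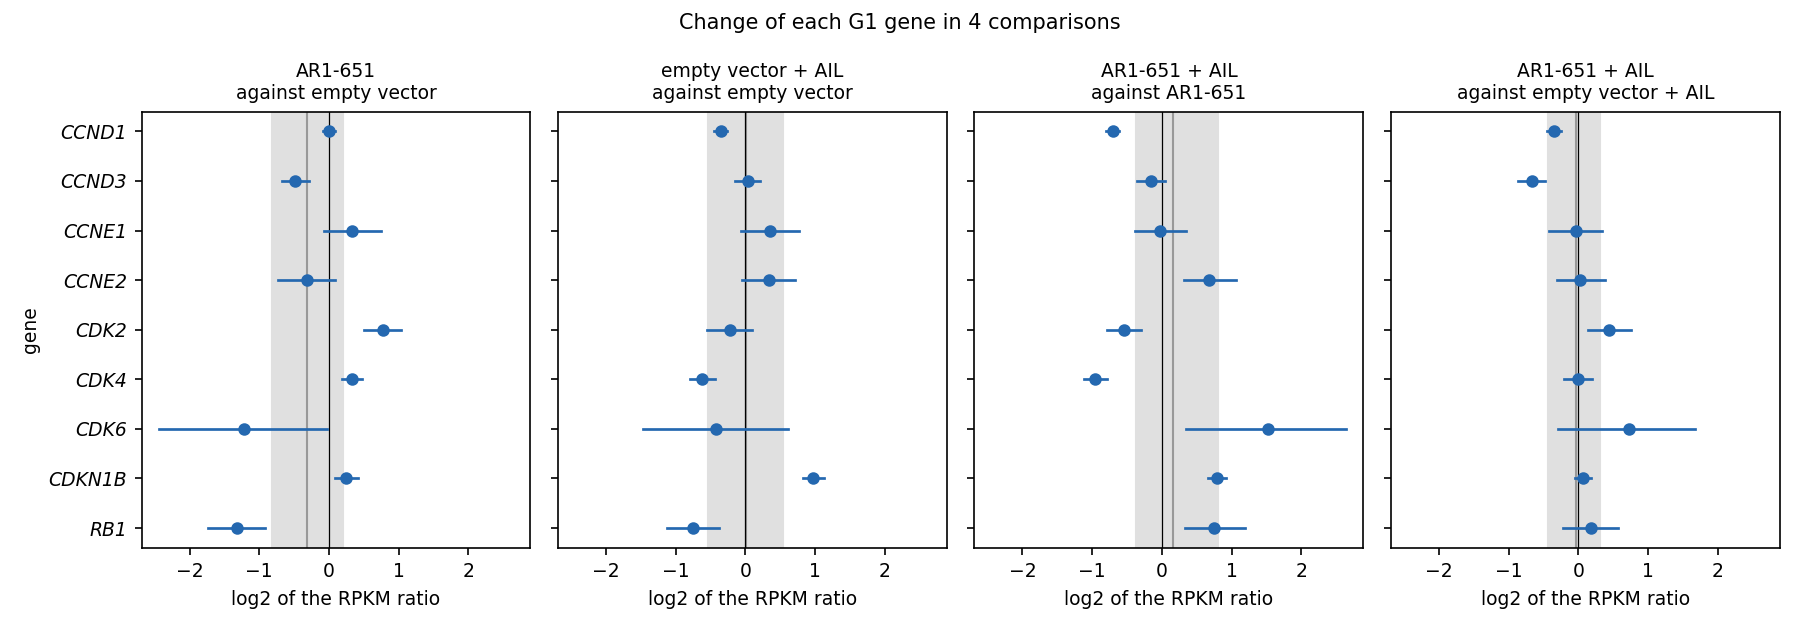
Log2 of the RPKM ratio of 9 G1 genes (CCND2 left out for lack of reads) in each of the 4 comparisons, with 95% counting intervals. The grey band holds the middle 50% of genes with RPKM of at least 1 in both libraries and the grey line is their median. With AIL in AR1-651 cells CDK4, CCND1 and CDK2 lie below the band, CDKN1B at its upper edge and CDK6, with its wide interval, above it, and in empty vector cells CDKN1B lies above the band and CDK4 and RB1 below it.

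Counted by comparison, 8 of the 10 genes entered, since CCND2 and CDK6 stayed under 1 RPKM in every library. The 8 had at least 2.81 RPKM in all libraries. For AR1-651 against empty vector, 0 of 8 were at least 2-fold higher and 1, RB1, at least 2-fold lower, where 4.01% and 11.6% of all 14626 genes were. At 1.5-fold, 1 was higher (CDK2) and 1 lower (RB1), against 10.7% and 32.3% of all genes. The median of the 8 was 0.12, and that of all genes -0.30.

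For empty vector + AIL against empty vector, 0 of 8 passed 2-fold in either direction, against 9.53% of all genes higher and 9.03% lower. At 1.5-fold, CDKN1B was higher and CDK4 and RB1 were lower, against 20.9% and 22.1% of all genes. For AR1-651 + AIL against AR1-651, again 0 of 8 passed 2-fold, against 14.9% higher and 5.74% lower. At 1.5-fold, 3 were higher (CCNE2, CDKN1B and RB1) and 2 lower (CCND1 and CDK4), against 28.6% and 14.7%. With median-ratio scaling the 3 higher changes were 0.41, 0.56 and 0.42, all under 1.5-fold. The 2 lower ones were then -0.92 and -1.15. The share of all genes under that scaling was not worked out. The medians of the 8 with AIL were -0.09 in empty vector cells and -0.08 in AR1-651 cells, beside -0.02 and 0.13 for all genes.

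For AR1-651 + AIL against empty vector + AIL, 0 of 8 passed 2-fold, where 1.46% of all genes were higher and 3.53% lower. CCND3 was the 1 gene at least 1.5-fold lower, and 0 were higher, against 15.5% and 7.73% of all genes. The median of the 8 was 0.01, beside -0.03 for all genes. The counting interval of the ratio included 1 for 6 of the 9 genes that had enough reads for one, against 3 for AR1-651 against empty vector, 5 for AIL in empty vector cells and 2 for AIL in AR1-651 cells. Such counts depend on read number and on library scaling. The same share over all genes was not worked out, so they have no background.

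Ratios between members within one library do not depend on how that library was scaled. CDKN1B to CDK4 was 0.670 with empty vector (counting interval 0.596 to 0.751), 2.01 with empty vector + AIL (1.79 to 2.26), 0.632 with AR1-651 (0.571 to 0.699) and 2.11 with AR1-651 + AIL (1.90 to 2.36). The inhibitor transcript was thus the rarer of the pair without AIL and the more abundant with it, in either background. CDKN1B to CDK2 was 2.58 without and 5.92 with AIL in empty vector cells, and 1.80 without and 4.55 with AIL in AR1-651 cells. CCND1 to CDKN1B ran the opposite course, at 2.56, 1.02, 2.16 and 0.766 in the same order. CCND1 to CDK4 varied less, between 1.37 with AR1-651 and 2.06 with empty vector + AIL. CCND1 to RB1 was 37.5 with AR1-651 and 13.6 to 19.7 in the other libraries. Scaling of libraries leaves these ratios as they are, whereas length and GC content do not. CDK4, CDK2 and CDKN1B had 2076, 2296 and 2657 nt of exon with 53.6%, 48.4% and 47.7% GC. CCND1 and RB1 had 4307 and 4793 nt with 50.3% and 37.3% GC.

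**Figure D3:**
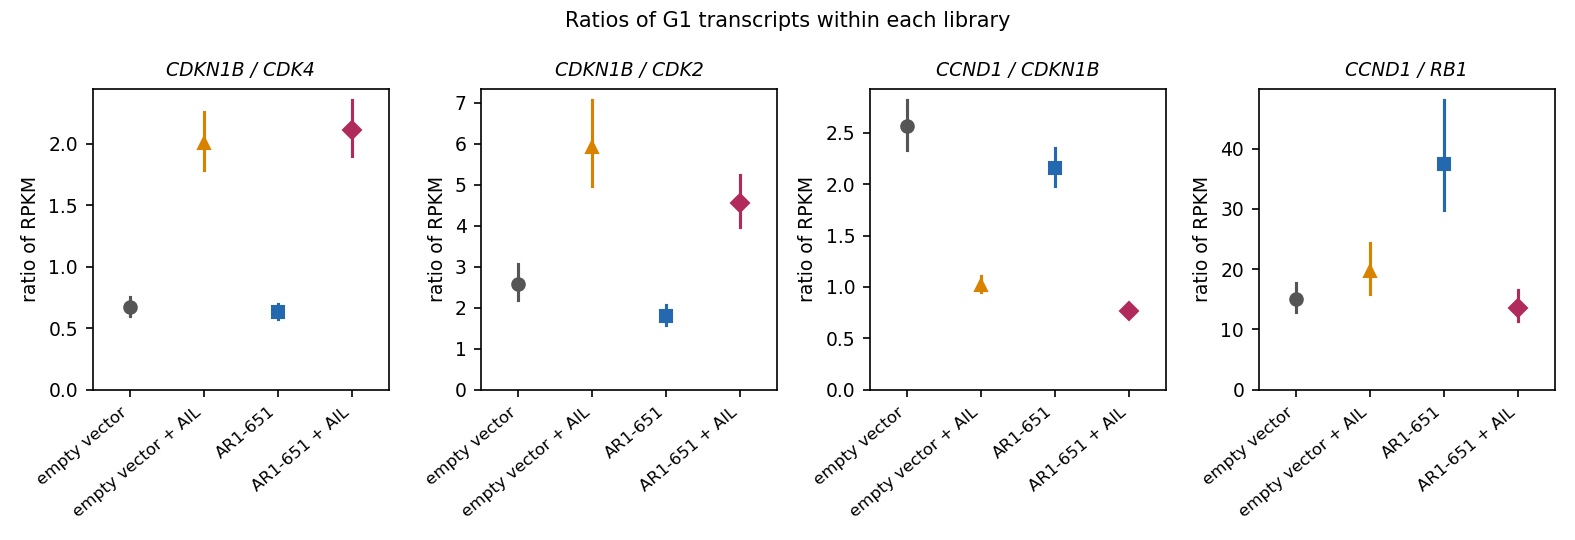
Ratio of RPKM between pairs of G1 genes in each of the 4 libraries, with 95% counting intervals and axes from 0. CDKN1B to CDK4 was 0.670 and 0.632 without AIL and 2.01 and 2.11 with it, and CCND1 to RB1 was highest with AR1-651, at 37.5.

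The design also asks whether the change with AIL was alike in the 2 backgrounds. The difference between the AIL changes, AR1-651 minus empty vector, was -0.35 for CCND1, -0.33 for CDK4, -0.31 for CDK2 and -0.17 for CDKN1B on the log2(RPKM + 1) scale, so that these 4 kept one direction in both. It was 0.30 for CCNE2, -0.34 for CCNE1 and -0.18 for CCND3. With the length and GC trend removed, the CCNE2 difference turned to -0.46 and the CCND1 difference moved to -0.49. Median-ratio scaling lowered the differences of all 8 genes. It gave -0.56 for CCND1, -0.54 for CDK4, -0.52 for CDK2 and -0.38 for CDKN1B. The others became 0.12 for CCNE2, -0.53 for CCNE1, -0.38 for CCND3 and 1.05 for RB1. RB1 had the widest difference of the 8, 1.22, with a change of -0.63 in empty vector cells and 0.59 in AR1-651 cells, and it was 0.38 with the length and GC trend removed. Each difference rests on 4 single libraries and was not tested.

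**Figure D4:**
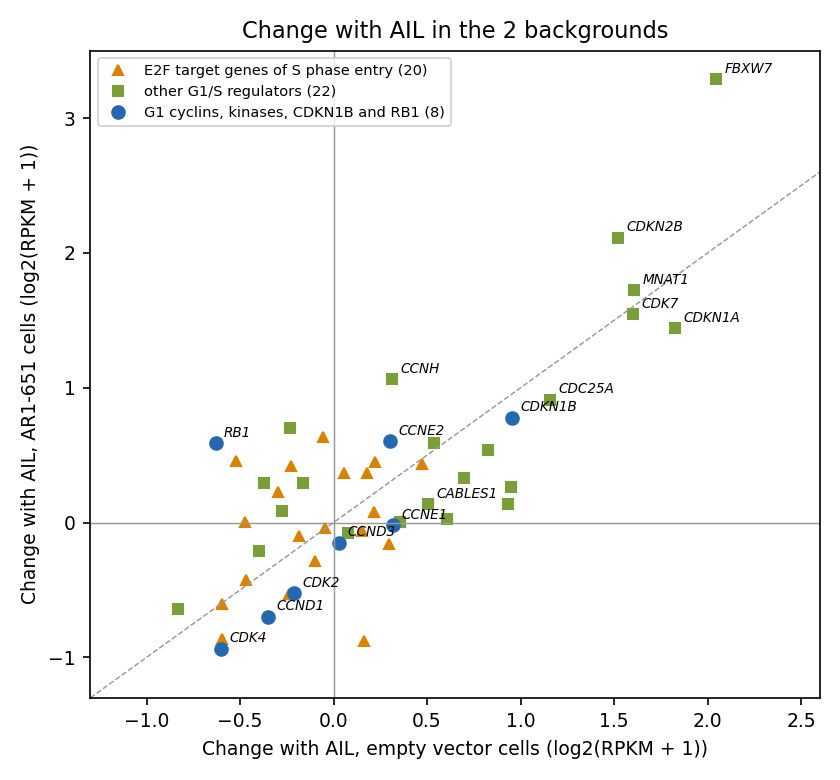
Change with AIL on the log2(RPKM + 1) scale in empty vector cells (x axis) and AR1-651 cells (y axis), 1 point per gene that reached 1 RPKM in at least 1 library, for the G1 genes (8), other G1/S regulators (22) and E2F target genes (20). The dashed line marks equal changes. RB1 is the G1 gene farthest from it, at -0.63 and 0.59, and FBXW7 is the farthest of the labelled regulators, at 2.05 and 3.29.

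Around these genes, a list of 22 other G1/S regulators (inhibitors, pocket proteins, the CDK-activating kinase, CDC25A, ubiquitin ligase subunits, the cochaperone CDC37 and CABLES1) was read out. All 22 passed the 1 RPKM limit. With AIL, 6 of 22 were at least 2-fold higher and 0 lower in empty vector cells, and 6 higher and 0 lower in AR1-651 cells, where 9.53% and 14.9% of all genes were higher. Their median was 0.57 and 0.31, beside -0.02 and 0.13 for all genes. For AR1-651 against empty vector 0 of 22 passed 2-fold in either direction (4.01% of all genes higher, 11.6% lower), and for AR1-651 + AIL against empty vector + AIL only CABLES1, which encodes a CDK2 adaptor, did (7.19 to 2.92 RPKM, log2 change -1.06), against 1.46% and 3.53% of all genes. The CABLES1 change was -0.65 with the length and GC trend removed, short of 2-fold.

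Among the inhibitors, CDKN1A (p21), the CIP/KIP relative of CDKN1B and a p53 target, had 155 RPKM without and 551 with AIL in empty vector cells, and 132 without and 361 with AIL in AR1-651 cells. It exceeded CDKN1B in every library and was 3.57-fold (3.39 to 3.76) and 2.73-fold (2.59 to 2.89) higher with AIL. CDKN2B (p15), an INK4 inhibitor of CDK4 and CDK6, had 2.14, 8.02, 1.24 and 8.69 RPKM in the same order. It was 3.75-fold higher with AIL in empty vector cells (2.67 to 5.42) and 7.01-fold higher in AR1-651 cells (4.70 to 11.0). An antisense gene overlaps CDKN2B, and whether reads were counted by strand is not given in the sources used here. CDKN2C (p18), another INK4 inhibitor, went the other way without reaching 2-fold, with 17.6, 9.46, 19.7 and 12.3 RPKM.

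The subunits of the CDK-activating kinase, which phosphorylates CDK2 and CDK4 on their activation loops, were all higher with AIL. CDK7 had 22.7 RPKM without and 70.9 with AIL in empty vector cells, and 30.7 without and 91.5 with AIL in AR1-651 cells, and MNAT1 had 14.2, 45.3, 20.1 and 68.7. Their ratios with AIL were 3.12 and 3.19 in empty vector cells and 2.98 and 3.42 in AR1-651 cells. CCNH, the cyclin of this kinase, reached 2-fold in AR1-651 cells only (56.4 to 119 RPKM, ratio 2.11, interval 1.89 to 2.35), with a ratio of 1.24 in empty vector cells. With the length and GC trend removed the log2 changes in AR1-651 cells were 0.91 for CDK7, 0.86 for MNAT1 and 0.67 for CCNH, all under 2-fold.

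FBXW7, the F-box protein that marks cyclin E for degradation, had 3.67 RPKM without and 18.3 with AIL in empty vector cells, and 2.13 without and 29.6 with AIL in AR1-651 cells. It was 4.99-fold higher with AIL in empty vector cells (4.12 to 6.13) and 13.9-fold higher in AR1-651 cells (11.1 to 17.9). CDC25A, the phosphatase that activates CDK2, had 3.20, 8.36, 4.45 and 9.26 RPKM, with ratios of 2.61 (1.92 to 3.57) and 2.08 (1.62 to 2.71). The second fell short of 2-fold on the log2(RPKM + 1) scale, at 0.91. SKP2, which marks CDKN1B for degradation, was highest with empty vector (11.6 RPKM) and lowest with AR1-651 (5.44), and CDC37 had 122 RPKM with empty vector and 187 to 198 in the other libraries.

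Of 21 E2F target genes of S phase entry, 20 passed the limit (E2F2 did not, at 0.45 to 0.99 RPKM), and 0 of 20 were 2-fold higher or lower in any of the 4 comparisons. Of all genes, 4.01% were higher and 11.6% lower for AR1-651 against empty vector, 9.53% and 9.03% for AIL in empty vector cells, 14.9% and 5.74% for AIL in AR1-651 cells, and 1.46% and 3.53% between the AIL libraries. Their median change with AIL was -0.08 in empty vector cells and -0.02 in AR1-651 cells. With AIL, changes ranged from -0.60 (E2F1) to 0.47 (CDT1) in empty vector cells and from -0.88 (CDC6) to 0.63 (POLA1) in AR1-651 cells. E2F1, which encodes the factor that RB1 restrains, had 17.1 RPKM without and 10.9 with AIL in empty vector cells, and 13.3 without and 6.86 with AIL in AR1-651 cells, lower with AIL in either background. CDC6, a replication licensing factor, had 8.63, 9.79, 17.3 and 8.98 RPKM and was highest with AR1-651, while its other 3 libraries lay close together.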

How the data were processed

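The authors sequenced LNCaP RNA on an Illumina HiSeq and deposited RPKM per gene, rounded to 2 decimals, with Entrez Gene and RefSeq identifiers. The submitters' processing notes name BWA 0.7.10-r789 and hg19, and the counting tool and annotation release are not given in the sources used here. The labels mention both a ribosomal RNA depletion kit and oligo (dT) enrichment. Symbols came from a RefSeq table (19703 of 19801 genes matched). Exon length (union over the listed transcripts) and GC content (longest transcript) came from GENCODE release 29, found for 95.8% of the 14626 genes that reached 1 RPKM in at least 1 library. Changes were differences of log2(RPKM + 1), and no test was run, since each condition has 1 library and the 4 libraries could give a test only by assuming that AIL and plasmid add on the log2 scale.

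Depth was estimated from genes with 1 transcript under 1500 nt, as the step in RPKM x length at which low values recur. Of 558 to 635 such values per library, 55.7% to 61.3% lay within 0.15 of a whole number of steps. Evenly spread values would give 30% at a step fixed beforehand. The step was picked as the best fit to these same values, so that comparison is no test of the depth. RPKM x length divided by the step gave approximate reads, and from these came exact Poisson intervals for levels and exact binomial (Clopper-Pearson) intervals for ratios, at 95%, and normal approximations for differences between log2 ratios. They take the estimated depth and length as exact and hold no biological error. The floor for a value of 0 was 3 reads per library.

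The genes described were the 10 members and, of 2 further lists, the genes that changed at least 2-fold in at least 1 comparison. CDKN2C, SKP2, CDC37, E2F1 and CDC6, and those at the ends of a range, were named after their values were seen. Members and lists were chosen with earlier results of these data known. Alternatives were median-ratio scaling, a pseudocount of 0.1, a limit of 5 RPKM or none, 1.5-fold in place of 2-fold, and removal of the length and GC trend (a fitted polynomial of degree 3 over ranked length and over ranked GC, whose intercept centres the changes). The calculations were tested on simulated data. A marker gene and a motif are not reported here. Python 3.11.15, NumPy 2.4.6, pandas 2.3.3, SciPy 1.17.1 and matplotlib 3.10.9 were used.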

Additional observations from a re-analysis of the deposited data

Results flagged for a closer look

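Of the 8 G1 genes counted, 3 had changes with AIL of opposite sign in the 2 backgrounds, and none of these differences was tested. For RB1 the change with AIL in AR1-651 cells minus that in empty vector cells was 1.22 on the log2(RPKM + 1) scale (-0.63 with empty vector, 0.59 with AR1-651), 1.05 with median-ratio scaling and 0.38 with the length and GC trend removed, where both changes were negative. For CCNE1 the difference was -0.34 (0.32 and -0.02) and for CCND3 -0.18 (0.03 and -0.15). The counting interval of the difference between log2 ratios ran from 0.95 to 2.05 for RB1, and included 0 for CCNE1 (-0.91 to 0.16) and CCND3 (-0.45 to 0.08). Opposite signs were not particular to these genes. They also occurred in 5 of 22 other regulators and 8 of 20 E2F targets, with a counting interval of the difference that left out 0 in 4 and 6 of them, among these RBL1 (-0.24 and 0.70), SKP2 (-0.37 and 0.29) and CCNA2 (-0.52 and 0.46), named after their values were seen. With the length and GC trend removed these pairs were -0.16 and 0.09, -0.45 and -0.25, and -0.72 and -0.07. The share of all genes with opposite signs was not worked out, so these counts have no background.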

How the results depend on the processing

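Across the 32 log2 changes of the 8 counted G1 genes (4 comparisons each), 0 changed sign with a pseudocount of 0.1, without a filter, or with RPKM of at least 5, 2 did with median-ratio scaling (CCNE1 and CDK4, AR1-651 + AIL against empty vector + AIL, 0.02 and 0.05), and 6 did with the length and GC trend removed. With that trend removed, RB1 and CCNE2 turned negative for AR1-651 + AIL against AR1-651 (-0.19 and -0.29) and for AR1-651 + AIL against empty vector + AIL (-0.21 and -0.53), where CCNE1 and CDK4 became 0.05 and 0.11. CDK4 and CCND1 stayed lower and CDKN1B higher with AIL under every alternative run. The 1 G1 gene at least 2-fold lower with AR1-651, RB1, became 0 with median-ratio scaling and 0 with the trend removed, and median-ratio scaling made 1, CDK4, at least 2-fold lower for AR1-651 + AIL against AR1-651 (-1.15).

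For AR1-651 against empty vector, a pseudocount of 0.1 gave 1 other regulator and 1 E2F target lower, median-ratio scaling 2 regulators and 2 E2F targets higher, and trend removal 1 and 1 higher. For AR1-651 + AIL against AR1-651, median-ratio scaling and trend removal each gave 2 E2F targets lower, and trend removal left 3 regulators higher. For AR1-651 + AIL against empty vector + AIL, trend removal left 0 regulators lower. At 1.5-fold the G1 genes, higher and lower, were 1 and 1 for AR1-651 against empty vector, 1 and 2 for AIL in empty vector cells, 3 and 2 for AIL in AR1-651 cells, and 0 and 1 between the AIL libraries. In that order of comparisons, the other regulators were 3 and 3, 11 and 1, 9 and 1, and 2 and 3, and the E2F targets 3 and 5, 0 and 2, 1 and 3, and 1 and 3. In the same order, the shares of all genes, higher and lower, were 10.7% and 32.3%, 20.9% and 22.1%, 28.6% and 14.7%, and 7.73% and 15.5%. For the 2-fold counts under the other settings, the share of all genes was not worked out. The change with AIL was read within each background, and no test across the backgrounds was run. The cause of these shifts was not tested. Depth limits CCND2 and CDK6, which had about 0 to 1 and 10 to 28 reads respectively.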
